A study of Cyprinus carpio with 18 samples.

Results

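Transcripts that were transient at organ formation, 20 hours post-fertilization (hpf), were sought in RNA-seq of the common carp, Cyprinus carpio, with whole animals as samples. A feature, meaning a row of the deposited count table, was kept where its level in all 3 organ formation libraries lay above, or in all 3 lay below, its level in each of the 15 libraries of the other 5 stages. Of 90808 features, 4597 met this rule, 3578 of them higher and 1019 lower at organ formation. All animals were wild-type FFRC No.2 carp, a farmed variety made by selective breeding, obtained by natural spawning, and no group carried a transgene or received a treatment. Cleavage (2 hpf), blastocyst (6 hpf), gastrulation (12 hpf), hatching (64 hpf) and larva (1 day post-hatching, dph) were the other stages, each with 3 libraries of total RNA depleted of ribosomal RNA.

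In fish embryos the organ formation period follows gastrulation. Paired somites bud from the mesoderm along the trunk and give rise to muscle, the neural tube is divided into brain regions, Hox genes assign position along the body axis, and the first blood, vessel and heart cells form. Many regulators of these steps are used for a short time and are then silenced or confined to a few cells.

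Levels are library-scaled counts (CPM, with TMM factors), given as mean ± SD over 3 libraries. The gap of a member is its lowest organ formation library divided by its highest other library, or the reverse for members that were lower. Since the rule chose members by these very levels, their values are a description and carry no test. Tests are edgeR quasi-likelihood tests over all 69265 features that passed the filter on low counts, and "rose" or "fell" is written only where the Benjamini-Hochberg adjusted p was under 0.05. The 3 organ formation libraries held 20206505, 21170153 and 19624716 counts, within the range of 16326813 to 43270557 over the 18 libraries. Larva replicate 3 stood apart from the other 2 larva libraries, with a Pearson correlation of 0.9608 and 0.9636 across 5000 features, against 0.9801 or more for every other pair within a stage. Without it, 3863 features were higher and 1127 lower, including all 3578 and 1019, since leaving out a library can only add members. The labels state that RNA of a stage was pooled and name no separate spawnings, so a p-value here speaks of the spread among 3 libraries of a stage, and that spread may be technical. In whole embryos, fewer cells of a type and less RNA per cell cannot be told apart.

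By their median, members that were higher were low up to the blastocyst and remained detectable after organ formation. Their median level was 0.0224 CPM at cleavage, 0.121 CPM at blastocyst and 1.55 CPM at gastrulation. It was 7.39 CPM at organ formation, 3.22 CPM at hatching and 2.59 CPM in the larva. No read at all was counted at cleavage for 1647 of the 3578, and none at cleavage or blastocyst for 883. Absence there was common in general, since single cleavage libraries detected 42678 to 49097 of all 90808 features. The share of all features without a read in every cleavage library was not computed. Protein-coding members had medians of 0.605 CPM at cleavage and 0.691 CPM at blastocyst, against 0 and 0.0316 CPM for lncRNA members. Of the other 5 stages, the one with the highest mean level was hatching for 1835 members, gastrulation for 893, the larva for 735, blastocyst for 63 and cleavage for 52. The summed CPM of these members was 9.61% of a fixed base at organ formation, against 3.89% at gastrulation and 5.27% at hatching. That base was the same for every stage and is not the scaled total of a stage. The summed CPM of all tested features was 1.04e+06 at organ formation, 1.33e+06 at gastrulation and 1.06e+06 at hatching. The percentages are therefore not shares of the scaled counts, and at gastrulation the true share was lower still. Among tested features 3435 were such members, 4.96% of the 69265.

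Members that were lower followed the opposite course. They were abundant in the early embryo, by the rule lowest at 20 hpf among the 6 sampled stages, and higher again at the later stages. No stage between 20 and 64 hpf was sampled, so a peak or minimum within that span would not be seen. Their median level was 17.0 CPM at cleavage, 16.2 CPM at blastocyst and 6.47 CPM at gastrulation. It was 2.64 CPM at organ formation, 6.42 CPM at hatching and 8.62 CPM in the larva. Among tested features 1017 were such members, 1.47% of the 69265, and 39 of the 1019 had no count in any organ formation library.

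**Figure D1:**
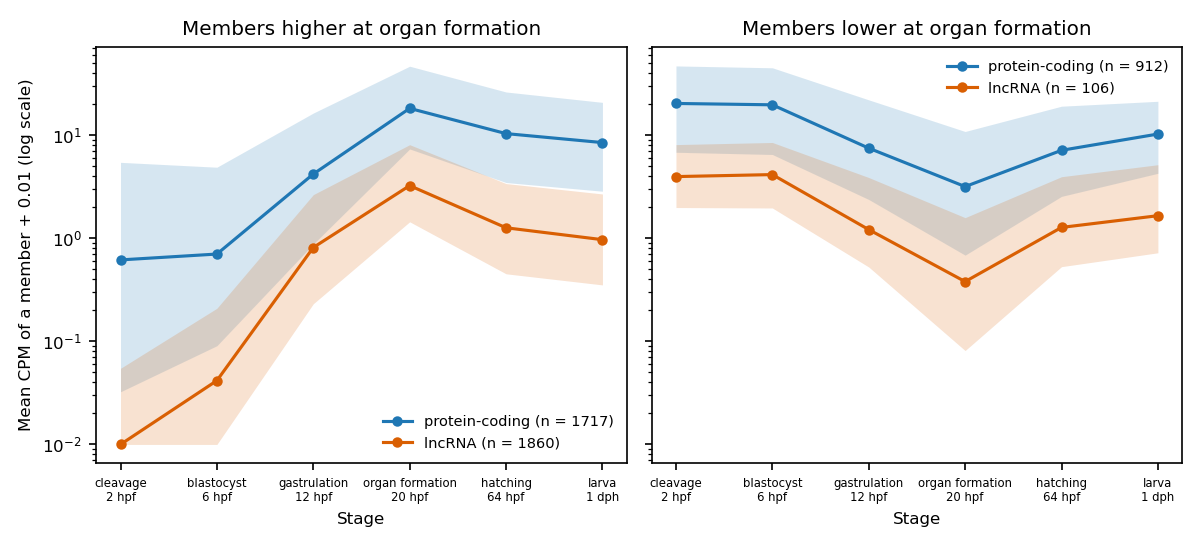
Median level of members at each stage, as mean CPM of a member plus 0.01 on a log axis, with the range between the lower and upper quartile shaded, for protein-coding and lncRNA members. Among the higher members the protein-coding median was 18.1 CPM at organ formation and the lncRNA median 3.22 CPM, and among the lower members they were 3.15 and 0.369 CPM.

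Long non-coding RNAs (lncRNAs) made up 1860 of the 3578 higher members, 52.0%, and 106 of the 1019 lower members, 10.4%. They were 45.7% of all features, from which these members were drawn, and 39.5% of the tested features. Of tested lncRNAs 6.39% were higher and 0.380% lower, and of tested protein-coding genes 4.02% were higher and 2.18% lower. Most of these lncRNAs have no gene identifier, and 1694 higher members carry a StringTie name alone.

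The gap was small for most members. Its median was 1.24-fold for the higher and 1.20-fold for the lower members, and it was 2-fold or more for 427 and 152. At the edge of the rule stood LOC109103069, named kelch-like protein 40a, whose lowest organ formation library held 14.5353 CPM against a highest other library of 14.5257 CPM. Just outside was mfap2, with 79.6104 CPM in its lowest organ formation library and 79.6204 CPM in the highest other one. Among lower features LOC109108011 was just inside, with 13.3343 CPM in its highest organ formation library and 13.3398 CPM in its lowest other one, and LOC109064384 just outside, with 23.0988 and 23.0963 CPM. In the test of organ formation against each of the other 5 stages, edgeR called 413 features higher (0.596% of those tested) and 259 lower (0.374%). That test rests on the contrasts the rule used, so nothing is read from it for the members.

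Among annotated higher members with a mean of at least 10 CPM at organ formation, ddc had the widest gap. The gene ddc encodes dopa decarboxylase, which makes dopamine and serotonin from their precursors. It stood at 366.7, 372.3 and 378.7 CPM in the 3 organ formation libraries. The other 15 libraries ran from 0 to 29.4 CPM with a median of 3.21 CPM. The 2 sets of libraries were thus 12.5-fold apart at their nearest points, with hatching as the nearest stage at 23.4 ± 5.49 CPM (n = 3). At gastrulation ddc held 10.3 ± 1.24 CPM and in the larva 3.18 ± 0.0909 CPM (n = 3).

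Copies of zbtb16, a zinc finger and BTB domain transcription factor that acts as a repressor in mammals, were the most frequent name among the widest gaps. Carp has a duplicated genome, and of 7 tested features with this name 6 were members. LOC109045310 held 233.3, 232.9 and 237.9 CPM at organ formation, against 0.549 to 41.4 CPM elsewhere. LOC109102475 held 208.8, 192.2 and 184.4 CPM against 0 to 23.8 CPM, and LOC109082382 held 134.2, 139.4 and 131.0 CPM against 0 to 13.3 CPM. In each of these copies every organ formation library was several-fold above the best of the 15 others. The remaining member copies, LOC109045447, zbtb16 itself and LOC109069694, averaged 202.0 ± 10.1, 167.7 ± 7.98 and 68.2 ± 8.35 CPM (n = 3), with gaps of 4.32, 5.73 and 6.70. The seventh feature, LOC109103398, averaged 0.293 ± 0.246 CPM at organ formation and was at most 0.628 CPM in any library. The sources used here do not give whether reads that fit several copies were shared, dropped or assigned to 1 of them, and the level of a single copy is uncertain where copies are near-identical.

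**Figure D2:**
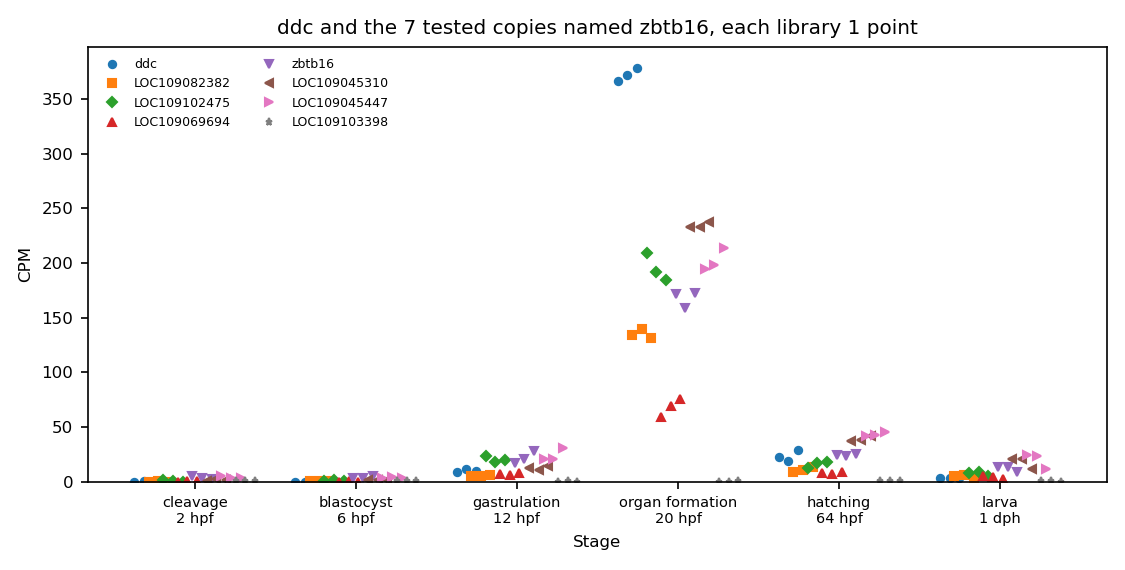
Level in CPM (linear axis) of ddc and of the 7 tested features named zbtb16, each point 1 library, by stage. The organ formation libraries of ddc and of 6 zbtb16 features lie between 59.4 and 378.7 CPM, above all other libraries, whose highest value is 45 CPM. LOC109103398 stays near 0 at every stage.

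Myomaker, the membrane protein that lets myoblasts fuse, has 2 copies and both were members. LOC109054023 held 55.5, 65.4 and 57.4 CPM at organ formation and at most 9.56 CPM elsewhere, and mymk held 23.8, 33.2 and 26.6 CPM and at most 4.99 CPM elsewhere. All 4 features named xin actin-binding repeat-containing protein 1, a protein of muscle junctions, were members too. The widest gap among them was that of LOC109058560, at 140.0, 141.5 and 107.0 CPM, against 9.25 ± 2.93 CPM at hatching and 13.5 ± 3.04 CPM in the larva (n = 3). It had no count at cleavage or blastocyst. The dysferlin and utrophin features were singled out after their values were seen. All 5 features named dysferlin, a membrane repair protein of muscle, were members, among them dysf, whose mean went from 5.42 CPM at gastrulation to 102.7 CPM at organ formation and 51.7 CPM at hatching. Of 17 features named utrophin, a relative of dystrophin, 13 were members. One of them, LOC109087885, held 71.7 CPM at gastrulation, 114.3 CPM at organ formation and 65.3 CPM at hatching. Whether these 17 features are separate genes was not tested.

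Several matrix genes were among the named members too. LOC109046494, a podocan-like small leucine-rich proteoglycan, held 84.6, 97.0 and 90.2 CPM at organ formation, 0.582 ± 0.778 CPM at gastrulation, 10.7 ± 1.75 CPM at hatching and 1.17 ± 0.752 CPM in the larva (n = 3). The collagen alpha-1(XI) gene LOC109075916, a fibrillar collagen of cartilage and notochord sheath, held 140.9, 131.5 and 124.7 CPM against at most 22.8 CPM elsewhere. Of 17 tested features named for this chain, only 2 were members. The large proteoglycan vcana (versican) held 87.9, 68.0 and 71.5 CPM against at most 15.6 CPM. As members, none of these overlapped any other library by the rule itself. All 5 features described as EGF-containing fibulin-like extracellular matrix protein 2, an elastic fibre protein, were members. Among them the feature with the symbol fibpb, which does not match that description, averaged 203.4 ± 30.9 CPM and was already at 46.7 ± 3.19 CPM at gastrulation but at 8.74 ± 1.60 CPM at hatching (n = 3), whereas efemp2a went from 0.193 CPM at gastrulation to 53.6 ± 3.98 CPM and stayed at 13 ± 0.358 CPM at hatching.

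The other named higher members with wide gaps had diverse roles. They were the homeobox gene LOC109112448 (Nkx-3.1-like, 11 ± 1.26 CPM), LOC109052156 (phospholipid transfer protein-like, 108.0 ± 6.42 CPM), LOC109054356 (guanylate-binding protein 1-like, 26.6 ± 1.95 CPM), LOC109109352 (protein-glutamine gamma-glutamyltransferase 2-like, a protein cross-linking enzyme, 31.3 ± 2.74 CPM) and LOC109093182 (a sodium-coupled amino acid transporter, 15.8 ± 2.04 CPM), each over 3 libraries. LOC109099138, described as hyphal wall protein 2-like and of unknown role in fish, averaged 44.8 ± 4.95 CPM. Their gaps ran from 3.64 to 5.51.

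Outside this set, which was ranked by gap, several families whose copies were members were singled out after their values were seen. All 3 features named C-ets-2, a transcription factor of the ETS family, were members, with LOC109059673 at 0.890 CPM at gastrulation, 45.8 CPM at organ formation and 11.5 CPM at hatching. The nuclear receptor gene nr2f5 went from 68.0 CPM to 264.5 CPM and back to 75.3 CPM over the same stages. LOC109066428, named as a putative all-trans-retinol reductase, an enzyme of retinol metabolism, was the most abundant higher member by CPM, at 378.0 CPM at gastrulation, 1308.7 CPM at organ formation, 70.1 CPM at hatching and 3.56 CPM in the larva.

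Per kilobase of feature length, the deposited RPKM values put other genes first. LOC109095519, a liver-type fatty acid binding protein, had the highest mean of all higher members at organ formation, 258.4 ± 21.5 RPKM (n = 3). It was followed by LOC109106253, described as an ice-structuring protein, at 177.2 ± 19.6 RPKM, and by LOC109066428 at 170.7 ± 24.1 RPKM. These 3 were named for their level alone.

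**Figure D3:**
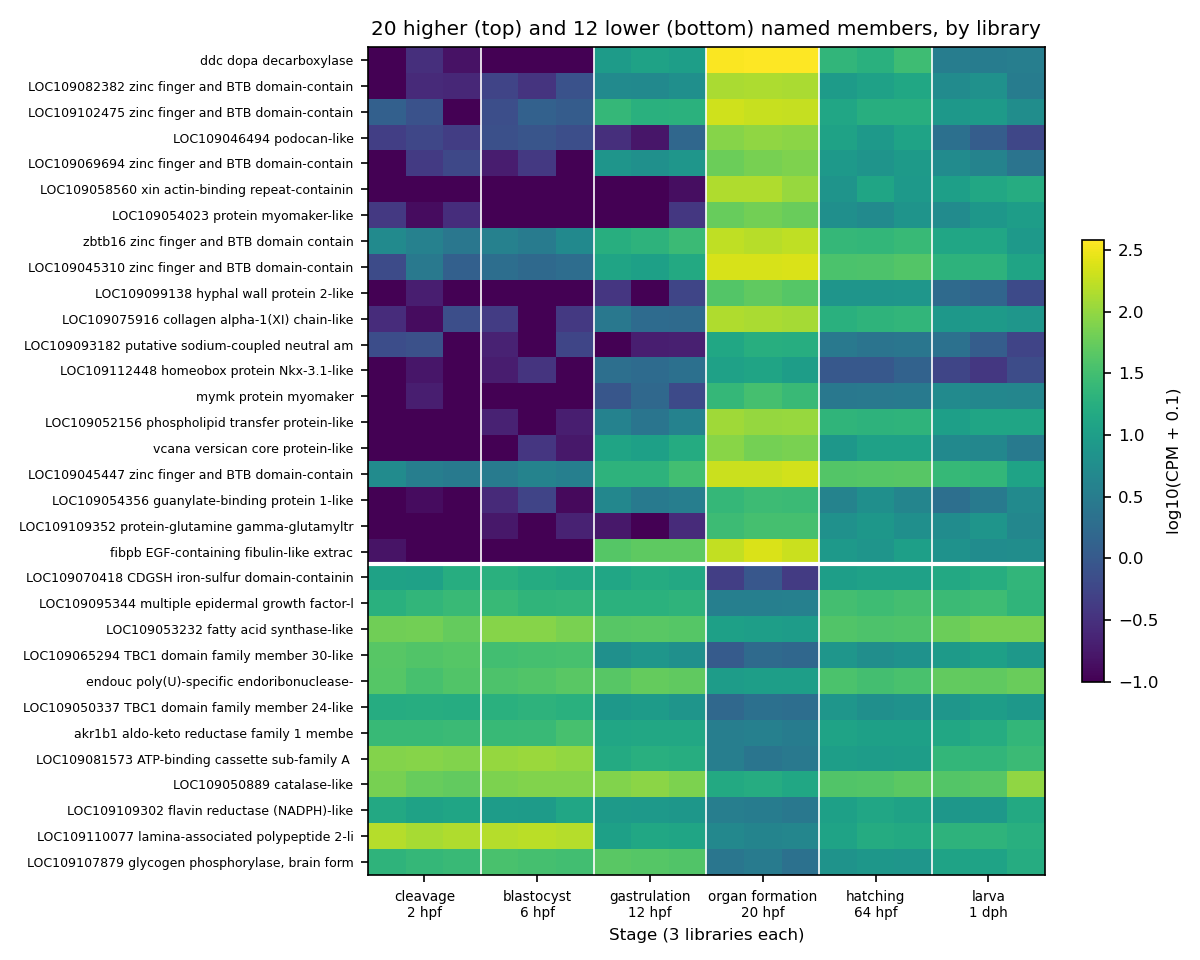
Level of the 20 named higher members (above the white line) and 12 named lower members (below it) with the widest gaps, in each of 18 libraries, as log10(CPM + 0.1) on a colour scale. Higher members had a mean of at least 10 CPM at organ formation, and lower members at least 5 CPM in their lowest other library. The 3 organ formation columns are the brightest of each upper row and the darkest of each lower row, from 378.7 CPM in ddc to 0.315 CPM in LOC109070418.

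Among lncRNAs, LOC109067131 had a gap of 10.6, with 17.3, 20.8 and 15.5 CPM at organ formation and at most 1.46 CPM elsewhere. MSTRG.92453 held 58.3, 57.7 and 57.5 CPM against at most 6.27 CPM, and MSTRG.24386 held 41.4, 32.0 and 37.1 CPM against at most 3.88 CPM. Neither name is tied to a known gene. MSTRG.81793 averaged 15.8 ± 1.07 CPM (n = 3) with a gap of 7.63. Among lncRNA or unnamed lower members with at least 5 CPM in their lowest other library, the 4 widest gaps were 1.42 to 1.65. The higher ones above were chosen with another floor, a mean of 10 CPM at organ formation, so these gaps are not directly comparable. Over all lncRNA members the median gap was 1.26 for the higher and 1.20 for the lower ones. LOC109068762, at 1.42, was no member with the RPKM denominators, where its gap was 0.93. The level of MSTRG.80526 went from 92.5 ± 1.06 CPM at cleavage to 6.96 ± 1.37 CPM at organ formation and 17.9 ± 2.83 CPM in the larva (n = 3).

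Among annotated lower members with at least 5 CPM in their lowest other library, LOC109070418 had the widest gap. LOC109070418 is a CDGSH iron-sulfur domain-containing protein 1-like gene whose product sits on the outer mitochondrial membrane. It held 0.360, 0.841 and 0.315 CPM at organ formation, while the other 15 libraries ran from 9.92 to 22.7 CPM. Its lowest other library was 11.8 times its highest organ formation library. LOC109053232, fatty acid synthase-like, held 10.7, 10.2 and 9.40 CPM against 38.3 to 84.3 CPM elsewhere, and all 3 features named fatty acid synthase were members. LOC109050889, catalase-like, which breaks down hydrogen peroxide, held 15, 16.5 and 13.6 CPM against 41.0 to 95.6 CPM. In none of these genes did an organ formation library reach any other library, as the rule requires. The reductase akr1b1 averaged 3.32 ± 0.26 CPM, glycogen phosphorylase LOC109107879 averaged 2.51 ± 0.488 CPM and the lipid transporter gene LOC109081573 (ATP-binding cassette sub-family A member 2-like) averaged 2.78 ± 0.482 CPM (n = 3), with gaps of 3.00, 2.28 and 2.88.

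The other 6 named lower members were of mixed roles. LOC109065294 and LOC109050337 belong to the TBC1 domain family, whose proteins act on Rab GTPases of membrane traffic, and averaged 1.36 ± 0.342 and 1.80 ± 0.232 CPM at organ formation. The endoribonuclease gene endouc averaged 9.79 ± 0.403 CPM against 49.7 ± 4.52 CPM at gastrulation and 34.5 ± 2.22 CPM at hatching (n = 3). LOC109095344, named multiple epidermal growth factor-like domains protein 9, averaged 3.46 ± 0.103 CPM against 18.7 to 32.7 CPM in the other libraries. LOC109110077, a lamina-associated polypeptide 2-like gene of the nuclear envelope, held 142.3 ± 11.2 CPM at cleavage and 4.26 ± 0.306 CPM at organ formation (n = 3), and LOC109109302 (flavin reductase) held 2.99 ± 0.324 CPM.

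Gene lists drawn up by symbol and product name give the wider context. Against cleavage 54.9% of tested features were higher and 22.3% lower by edgeR, against blastocyst 50.5% and 23.6%, and against the larva 19.9% and 24.1%. Between organ formation and gastrulation the shares were 28.1% and 19.8%, and between organ formation and hatching 12.2% and 17.4%. The median log2 change of all tested features, organ formation minus the other stage, was 1.62 against cleavage, 1.13 against blastocyst, 0.25 against gastrulation and 0.01 against both hatching and larva. All 5 comparisons share the organ formation libraries. The deposited RPKM values imply other library denominators than TMM, and with those the median log2 changes were 0.74, 0.47, 0.55, -0.40 and -0.46 in the same order of stages. The library totals alone gave 1.26, 0.83, 0.59, 0.04 and -0.02. With the RPKM denominators 1898 features were higher and 1356 lower members, so that higher members made up 58.3% of both directions in place of 77.8%. With the library totals 4228 were higher and 762 lower, and the higher ones made up 84.7%. Counts of members or of calls in a list that move by more than 1.5 times with the RPKM denominators have that count beside them.

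With TMM scaling, Hox genes held the highest share of higher members of the 32 lists, a rank that was lost with the RPKM denominators. Of 85 tested Hox genes 31 were higher members (36.5%, against 4.96% of all tested features) and none was a lower member. With the RPKM denominators 8 were higher members, against 8 myogenic (40 tested), 9 heart and vessel (47 tested), 15 Wnt (118 tested) and 12 brain region genes (114 tested). LOC109095888 (Hox-D11a) held 16.1, 19.6 and 16.4 CPM and no read at gastrulation, with at most 8.14 CPM elsewhere. LOC109113340 (Hox-C3a-like) held 37.9, 38.5 and 40.9 CPM against at most 22.8 CPM. The members ran from group 1 to group 11 genes and came from the A, B, C and D clusters, and their gaps were 1.01 to 1.97. By the test 76 of 85 Hox genes rose from gastrulation to organ formation (89.4%, against 28.1% of all tested features) and 2 fell (2.35%, against 19.8%). The median log2 change was 3.27, against 0.25 for all features. Against hatching 11 were higher (12.9%, against 12.2%) and 4 lower (4.71%, against 17.4%), which became 3 and 12 with the RPKM denominators. The median there was 0.19, against 0.01 for all features.

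**Figure D4:**
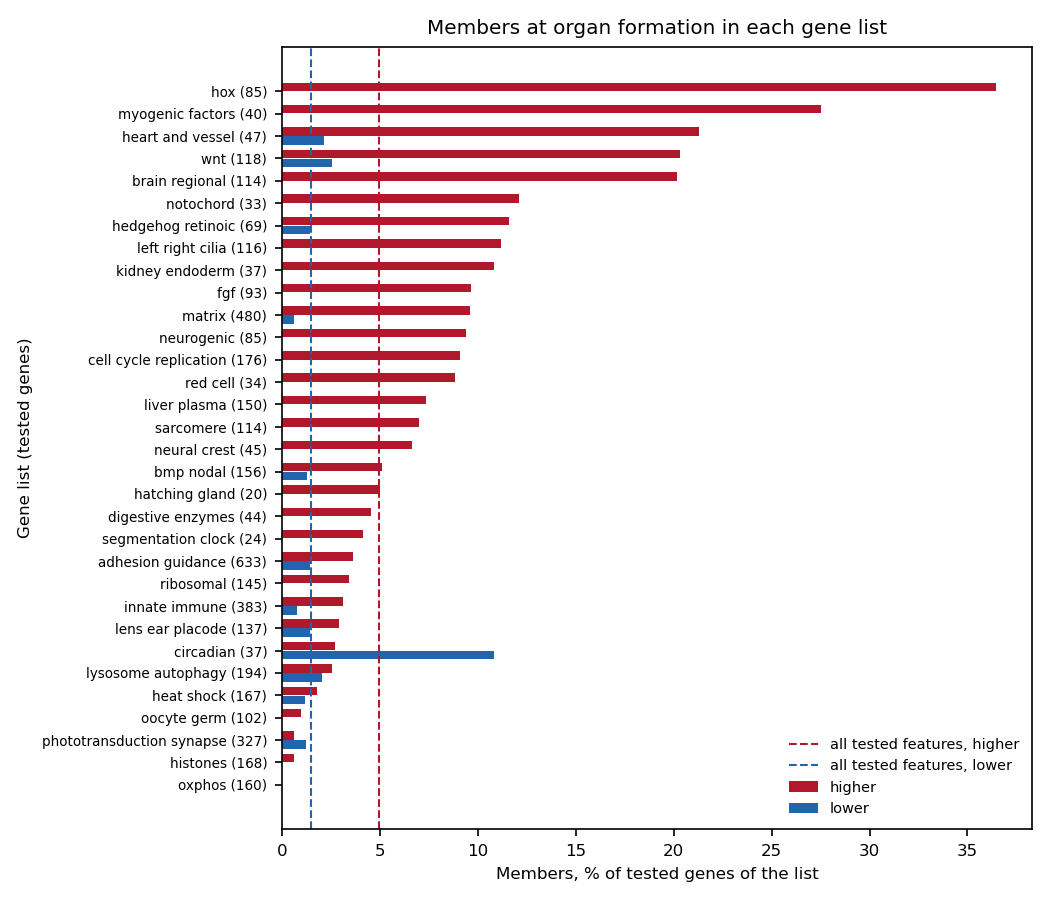
Share of tested genes in each of 32 gene lists that were higher (red) or lower (blue) members, in percent, with the number of tested genes in brackets and the shares over all tested features as dashed lines (4.96% and 1.47%). With the TMM scaling shown, Hox genes (36.5%) and myogenic factors (27.5%) have the highest shares of higher members (8 Hox and 8 myogenic genes with the RPKM denominators, where the Hox share is no longer the highest), and circadian genes (10.8%) the highest share of lower members.

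Of 40 tested myogenic factor genes 11 were higher members (27.5%, against 4.96% of all tested features), none was lower, and 8 were higher with the RPKM denominators. Against hatching 14 of the 40 were higher, 6 were lower and 20 did not pass the test (9 were higher and 9 lower with the RPKM denominators). The higher and lower shares were 35% and 15%, against 12.2% and 17.4% of all tested features. The master regulator myod1 held 85.3, 111.3 and 86.9 CPM, and its other copy LOC109090849 held 52.7, 67.8 and 52.9 CPM. No other library exceeded 30.9 CPM for the first or 20.1 CPM for the second. Myogenin, which acts later in differentiation, also had both copies among the members: myog averaged 59.3 ± 9.86 CPM and LOC109060877 averaged 64.6 ± 7.60 CPM (n = 3), from 0.0117 and 0.0571 CPM at gastrulation. Both copies of meox1, a homeobox gene of somites, were members as well, at 40.7 ± 6.25 CPM (LOC109088396) and 64.7 ± 9.48 CPM (LOC109058235). Among sarcomere genes 8 of 114 tested were higher members (7.02%, against 4.96% of all tested features) and 1 with the RPKM denominators. Of the 114, 78 rose from gastrulation to organ formation (68.4%, against 28.1%). Then 50 were lower at organ formation than at hatching (43.9%, against 17.4%) while 6 were higher (5.26%, against 12.2%, and 2 genes with the RPKM denominators) and 58 did not pass. The myosin light chain gene mylpfa held 77.2, 79.4 and 80.6 CPM at organ formation and 665.7 ± 59.8 CPM at hatching (n = 3), a log2 difference of -3.07 ± 0.20 (SE, edgeR adjusted p = 2.9e-09). Skeletal actin acta1b likewise stood at 121.2 ± 7.76 CPM and then 1853.5 ± 356.5 CPM, a log2 difference of -3.93 ± 0.35 (adjusted p = 6.3e-07, edgeR).

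Genes in the list of the segmentation clock, which times the budding of somites, were mostly lower at organ formation than at gastrulation. Of 24 tested, 20 were lower at organ formation than at gastrulation (83.3%, against 19.8% of all tested features) and 20 were higher than at hatching (83.3%, against 12.2%). A single gene was a member (LOC109076842, ripply3-like, at 2.37 CPM), a share of 4.17% against 4.96% of all tested features, and 0 were with the RPKM denominators. The gene msgn1, a factor of unsegmented mesoderm, held 99.1, 96.0 and 71.2 CPM at gastrulation, 8.37, 8.56 and 9.40 CPM at organ formation and at most 0.435 CPM at hatching. It fell by 3.34 on the log2 scale from gastrulation to organ formation (SE 0.26, edgeR adjusted p = 6.1e-10). The 3 stages did not overlap. The same order held for tbx6, at 27.6 ± 2.35, 9.40 ± 2.90 and 0.0316 ± 0.0318 CPM, and for the Notch ligand gene dlc, at 114.4 ± 5.67, 52.1 ± 3.93 and 32.1 ± 1.1 CPM (n = 3). From gastrulation to organ formation tbx6 fell by 1.56 and dlc fell by 1.14 on the log2 scale (edgeR adjusted p = 0.00047 and 1.5e-07). The feature with the symbol her1 went from 14.0 ± 3.68 to 1.08 ± 0.571 CPM, but its deposited description names another protein.

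**Figure D5:**
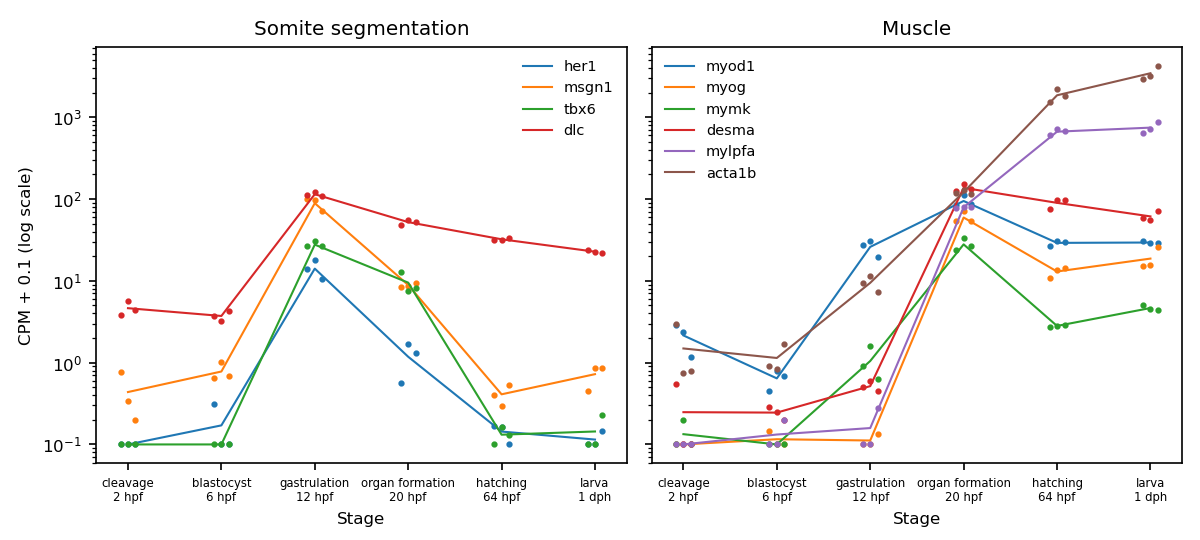
Levels of 4 features with symbols of somite segmentation genes (left) and 6 muscle genes (right) as CPM + 0.1 on a log axis. Points are single libraries and lines run through the stage means. The deposited description of the feature with the symbol her1 names another protein. The 4 features on the left are highest at gastrulation. On the right myod1, myog, mymk and desma are highest at organ formation, and mylpfa and acta1b reach 745.9 and 3447.7 CPM on average in the larva.

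Of 47 tested genes in the heart and vessel list 10 were higher members (21.3%, against 4.96% of all tested features) and 1 was lower (2.13%, against 1.47%). The lower one, klf9, entered the list by name, and a role in heart or vessels was not tested. Against hatching 12 of the 47 were higher (7 with the RPKM denominators), 4 were lower (9 with them) and 31 did not pass. The higher and lower shares were 25.5% and 8.51%, against 12.2% and 17.4% of all tested features. The blood stem cell factor tal1 held 43.3, 49.7 and 41.6 CPM against at most 18 CPM elsewhere, and its other copy LOC109046576 held 27.5, 29.4 and 29.7 CPM against at most 12.0 CPM. Both copies of its partner lmo2 (rhombotin-2) were members, at 30.5 ± 4.03 CPM (LOC109083258) and 50.3 ± 7.95 CPM (LOC109109075; n = 3). That both copies of each partner stood clear of all other libraries is what the rule requires of members. A receptor of vascular endothelial growth factor, LOC109110929, held 92.3, 75.3 and 78.0 CPM against at most 23.8 CPM. The red cell regulator gata1a had a narrower gap of 1.41, with 16.8, 16 and 15.7 CPM against at most 11.2 CPM at any other stage. Of 5 tested features named Nkx-2.5, a heart field factor, 2 were members, and they averaged 10 CPM (LOC109112064) and 7.01 CPM (LOC109045111). Of 34 tested red cell genes 3 were members (8.82%, against 4.96% of all tested features) and 1 with the RPKM denominators, and 18 were lower at organ formation than at hatching (52.9%, against 17.4%). Among these the heme synthesis gene alas2 held 20.6 ± 1.79 CPM and then 90.0 ± 7.37 CPM (n = 3), a log2 difference of -2.13 ± 0.22 (SE, edgeR adjusted p = 2.6e-07).

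Of 114 tested genes of brain regions 23 were higher members (12 with the RPKM denominators) and none was lower (1 with those denominators). The 23 were 20.2% of the list, against 4.96% of all tested features. The hindbrain factor mafbb held 90.3, 97.6 and 99.0 CPM against at most 33.1 CPM elsewhere. The retinal homeobox gene rx1 held 21.8, 22.8 and 24.6 CPM against at most 13.4 CPM, and its copy LOC109054648 held 17.9, 22.9 and 21.3 CPM against at most 11.1 CPM. These genes were nearly silent at gastrulation, with means of 0.191 CPM for rx1 and 0.160 CPM for its copy. A copy of engrailed-2, LOC109111813, a gene of the midbrain and hindbrain border, averaged 16 ± 1.60 CPM (n = 3) against 0.093 CPM at gastrulation and 7.12 CPM at hatching. Of 85 neurogenic genes 8 were higher members (9.41%, against 4.96% of all tested features), and 2 were with the RPKM denominators. Of the 8, 6 were features named HES-5, a Notch target that keeps neural progenitors undifferentiated. In all, 19 features of that name were tested, and only these 6 were members. The proneural gene neurod4 held 18.2, 24.0 and 21.6 CPM and was higher at hatching, at 64.4 ± 16.1 CPM (n = 3), a log2 difference of -1.60 ± 0.23 (SE, edgeR adjusted p = 1.8e-05). Of 327 photoreceptor and synapse genes 2 were higher and 4 were lower members (1 and 0 with the RPKM denominators). These shares of 0.612% and 1.22% stood beside 4.96% and 1.47% of all tested features.

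Of 118 tested Wnt pathway genes 24 were higher members (20.3%, against 4.96% of all tested features, and 15 genes with the RPKM denominators) and 3 were lower (2.54%, against 1.47%). Over the list 43 genes were higher (36.4%, against 28.1%) and 40 lower (33.9%, against 19.8%) at organ formation than at gastrulation. The 24 higher members included 17 features named as Wnt ligands, of types 2b, 3, 4, 6, 7a, 7b, 9a, 10b, 11 and 16. The secreted inhibitor sfrp5 held 45.7, 48.5 and 49.2 CPM against at most 22.1 CPM elsewhere, and wnt11 held 26.5, 25.1 and 26 CPM against at most 20.2 CPM. Each of these stood above all other libraries, by 2.07-fold for the first and 1.24-fold for the second. All 3 copies of lef1, a transcription factor that carries the signal with beta-catenin, were lower members. The copy named lef1 held 8.63, 7.13 and 10 CPM against 15.7 to 65.7 CPM elsewhere, LOC109046851 held 8.37, 8.61 and 9.92 CPM against 12.3 to 72.6 CPM, and LOC109062132 held 6.99, 7.57 and 6.98 CPM against 10.2 to 59.3 CPM. In every copy the highest stage was gastrulation. The ventral ligand gene wnt8a, no member, fell by 4.82 on the log2 scale from gastrulation to organ formation, from 84.9 ± 9.82 to 3.00 ± 0.422 CPM (n = 3, SE 0.19, edgeR adjusted p = 1.9e-14).

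Of 93 fibroblast growth factor genes 9 were higher members (9.68%, against 4.96% of all tested features) and none was lower (3 higher with the RPKM denominators). The ligand gene fgf1b had the widest gap of these, with 5.55, 5.64 and 3.46 CPM against at most 0.914 CPM elsewhere. Of 69 hedgehog and retinoic acid genes 8 were higher (11.6%, and 3 genes with the RPKM denominators) and 1 was lower (1.45%). Of 5 tested features named for the hedgehog receptor patched 1, only 2 were members. They were LOC109058479 at 246.9 ± 7.30 CPM and LOC109058463 at 210.3 ± 5.23 CPM (n = 3), with gaps of 1.22 and 1.17. Both were already above 100 CPM at gastrulation. The lower member was disp2, a relative of the gene that releases hedgehog ligands, at 1.18, 1.44 and 1.47 CPM against 4.49 to 18.8 CPM. Of 156 BMP and Nodal genes 8 were higher (5.13%) and 2 lower (1.28%), near the 4.96% and 1.47% of all tested features (5 and 6 with the RPKM denominators). The axis inducer gene chrd (chordin), no member, fell by 5.30 on the log2 scale from gastrulation, from 1012.0 ± 64.4 to 25.7 ± 3.58 CPM (n = 3, SE 0.24, edgeR adjusted p = 7.7e-13).

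Left-right asymmetry genes, which in zebrafish act around a ciliated vesicle at the tail, had 13 higher members among 116 tested (5 with the RPKM denominators, and 2 lower ones in place of none). The 13 were 11.2% of the list, against 4.96% of all tested features. The feature with the symbol dand5, a Nodal antagonist of the left-right organizer in zebrafish, is described as gremlin-1-like in the deposited table. It held 6.63, 8.27 and 6.51 CPM against at most 0.878 CPM in any other library, a gap of 7.41. From the list of BMP and Nodal genes, the Nodal homolog LOC109079800 held 2.82, 4.06 and 3.62 CPM against at most 1.5 CPM. Its other copy, spaw, held 2.47, 2.82 and 1.68 CPM and overlapped gastrulation, where 1 library reached 1.79 CPM. The other 12 members of the list were named for cilia or their regulators, such as rfx4 and features of the dynein arms, radial spokes and intraflagellar transport, with gaps of 1.03 to 1.46.

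Of 176 tested cell cycle genes 16 were higher members (9.09%, against 4.96% of all tested features) and none was lower (7 higher with the RPKM denominators). The replication clamp gene pcna held 446.1, 447.4 and 434.2 CPM against 104.0 to 258.7 CPM elsewhere. The helicase subunit gene mcm5 held 88.9, 99.6 and 94.9 CPM against at most 39.4 CPM, and LOC109054529 (MCM6-like) held 158.6, 173.3 and 158.5 CPM against at most 76.0 CPM. None of the 3 genes overlapped another stage, which the rule requires of members. Over the whole list, 92 genes were lower (60 with the RPKM denominators) and 40 higher (51 with them) at organ formation than at gastrulation, and 44 did not pass. The lower and higher shares were 52.3% and 22.7%, against 19.8% and 28.1% of all tested features. Compared with hatching, 116 were higher (65.9%, against 12.2%) and 1 was lower (0.568%, against 17.4%), which became 45 and 5 with the RPKM denominators.

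Of 535 matrix and basement membrane features 47 were higher members (20 with the RPKM denominators) and 3 were lower, and 480 passed the filter on low counts. Of those 480, 9.58% were higher and 0.625% lower members, against 4.96% and 1.47% of all tested features. The most abundant by CPM were LOC109047728 (fibrillin-2-like) at 634.1 ± 16.1 CPM, LOC109099275 (collagen alpha-5(IV)) at 619.6 ± 44.5 CPM and LOC109048817 (laminin alpha-5) at 473.3 ± 9.90 CPM (n = 3). Their gaps were 1.1, 1.44 and 1.37. The cartilage and notochord collagen gene col2a1a, no member, was at 257.2 ± 8.60 CPM and rose by 7.67 on the log2 scale from gastrulation (SE 0.31, edgeR adjusted p = 4.7e-12), and it was higher still at hatching. Over the list 300 genes rose from gastrulation to organ formation (62.5%, against 28.1% of all tested features) and 38 fell (7.92%, against 19.8%). Compared with hatching, 197 were lower (41.0%, against 17.4%) and 51 higher (10.6%, against 12.2%), the latter 29 with the RPKM denominators.

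Of all tested features 4.96% were higher and 1.47% lower members. None of 160 tested genes of oxidative phosphorylation was a member in either direction (1 was a lower one with the RPKM denominators), 1 of 168 histone genes was a higher member, and 5 of 145 ribosomal protein genes (3.45%) were higher members (0 with the RPKM denominators). Of 102 oocyte and germ cell genes 1 was a higher member and none a lower one (1 with the RPKM denominators). In the oocyte list 78 genes fell from gastrulation to organ formation (76.5%, against 19.8% of all tested features). Among them was ddx4, a germ cell helicase gene, which went from 69.6 ± 17.3 to 3.87 ± 0.678 CPM (n = 3, log2 difference -4.16 ± 0.20 SE, edgeR adjusted p = 3.9e-13). Of 37 circadian clock genes 4 were lower members and 1 was a higher one (0 with the RPKM denominators). The lower ones were nr1d4b, tefb, a cryptochrome-1-like gene (LOC109061929) and LOC109059483, at 1.63 ± 0.096, 17.1 ± 1.54, 7.45 ± 1.56 and 13.5 ± 1.94 CPM (n = 3). Their lowest libraries at other stages held 2.99, 25.5, 11.1 and 16.6 CPM.

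Gene copies shared membership in part. Among 4749 product names with exactly 2 tested copies, 322 had at least 1 higher member and in 76 both copies were higher. Where 1 copy was higher, the other was higher as well in 38.2% of cases, against 4.19% of all copies of these names. For lower members the shares were 18.6% and 2.15%, with both copies lower for 19 names. In 3 names 1 copy was higher and the other lower. Where copies have near-identical sequence their counts may not be separate measurements, and the part of this in the shared membership was not tested. By the gene order of the RefSeq assembly ASM1834038v1, 6.77% of the genes next to a higher member were themselves higher members, pairs of the same name left out, against 4.28% of all placed genes. Next to lower members 2.35% were lower, against 2.27% of all placed genes.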

How the data were processed

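Per the submitters' processing notes, the authors used HISAT2, StringTie 1.3.3b, featureCounts and edgeR; the sources used here do not give how multi-mapping reads and strand were treated. The deposited tables hold raw counts per feature, per the file headers, and RPKM values made by the authors; dividing one by the other gave the library denominators implied by RPKM. Counts of 18 libraries were scaled with TMM in edgeR 4.0.16 (R 4.3.3, limma 3.58.1), filtered with filterByExpr, and fitted with glmQLFit (robust) and glmQLFTest over all 6 stages, for organ formation against each of 5 stages. The joint call took the largest of 5 p-values, adjusted by the Benjamini-Hochberg method. DESeq2 1.42.0 was an alternative. All value columns were matched to a sample by label.

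The membership rule was applied to all features with or without the filter, and the filtered count is the alternative; the plan listed these the other way round. Named genes were, of annotated members, the 20 higher ones with a mean of at least 10 CPM at organ formation and the 12 lower ones with at least 5 CPM in their lowest other library that had the widest gaps, 4 lncRNAs or unnamed features in each direction, the key genes of each list and, per list, its 3 most abundant members. Other members of the lists and of multi-copy families that the text names, such as Hox-D11a, sfrp5, rx1, mcm5, klf9, disp2, the dysferlin and utrophin features and further copies of key genes, fall outside this rule and were chosen after their values were seen. The members and gene lists were chosen with earlier results of these data known, and syntaxins were removed from the Wnt list by name after values were seen. Replicates of a stage differed beyond sampling noise (chi-square per degree of freedom of at least 3.84), so none was a repeated library. The fit was tested on simulated data: with 64530 simulated features and organ formation against each of 5 stages, it recovered 97% of 4-fold higher and 74% of 4-fold lower features with 0 false calls. There, unchanged features had the same level at every stage, and a single dispersion held for all features. The joint call needs a change against all 5 stages, so false calls on such features were unlikely from the start. Real features differ between stages, so these rates need not hold for them. Counting precision covers sampling of reads alone. Gene order came from the RefSeq assembly ASM1834038v1, whose coordinates are not printed since the files use another build.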

Additional observations from a re-analysis of the deposited data

How the results depend on the processing

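With the library denominators implied by RPKM, 1898 features were higher members in place of 3578, and 1356 were lower in place of 1019. Members by both scalings were 1613 higher and 594 lower features. Every one of the 20 higher and 12 lower named protein-coding genes kept its gap above 1, while the named lower lncRNA LOC109068762 did not (0.93). The named genes were chosen for the widest gaps with TMM scaling, so this says little about the other members. With the same denominators the joint edgeR call held 156 higher features in place of 413, the comparison with hatching 2872 higher in place of 8427 and 18656 lower in place of 12086, and the comparison with the larva 5672 higher in place of 13786. Requiring a gap of 2-fold left 427 higher and 152 lower members. The DESeq2 test called 727 features higher in the joint comparison. Leaving out 1 library gave 3588 to 5276 higher and 1026 to 1392 lower members, which can only add members, and the highest count of higher ones came without organ formation replicate 2. For the joint call it gave 226 to 505 higher features, lowest without organ formation replicate 2, and 170 to 322 lower ones, lowest without organ formation replicate 1 and highest without larva replicate 3. The joint higher count was also below the main one by more than 1.5 times without gastrulation replicate 2 (267), hatching replicate 1 (245), hatching replicate 3 (261), organ formation replicate 1 (241) or organ formation replicate 3 (237); the cause was not tested. Replicate numbers did not pair the libraries (correlations of deviations from -0.23 to 0.175), and with a replicate block the joint call held 335 higher and 224 lower features. Among single genes 497 values kept their direction and side of the threshold, 20 lost the call and 1 reversed: lfng against hatching had a log2 change of 0.12 (edgeR adjusted p = 0.59) and of -0.29 with the RPKM denominators (adjusted p = 0.26). The tally includes the named members and lncRNAs, which were chosen for wide gaps in these same libraries. That those kept their direction is therefore largely given by the choice, and nothing is read from it. Depth limits members under 1 CPM, where a few reads decide the order of libraries.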
